A study of Rattus norvegicus with 6 samples.

Results

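The miR-378 family was described in the blood plasma of healthy rats, for 2 of the 3 family names looked for. The names rno-miR-378a-5p and rno-miR-378b were found among the 758 microRNAs of the array files, and rno-miR-378a-3p was not analysed here. The members were taken by name, and the family was chosen by the arterial and venous intensities of rno-miR-378b, which were already known. The contrast between arterial and venous plasma is therefore given as a description, with no test of its own. The animals were male Sprague-Dawley rats aged 10 weeks that had received no treatment. Each of 3 rats gave arterial blood from the abdominal aorta and venous blood from the postcava, and the plasma of each vessel was hybridized to a single-colour Agilent array of its own. There are thus 3 arterial and 3 venous samples, matched by rat, and rats 1 and 2 share a slide while rat 3 has another. Where 3 values are listed below, they run from rat 1 to rat 3.

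MicroRNAs are short RNAs that guide a silencing complex to messenger RNAs, mainly through the seed, the bases 2 to 8 from the 5′ end. The miR-378a hairpin is processed from an intron of Ppargc1b, the gene of PGC-1β, a transcriptional coactivator of mitochondrial and lipid metabolism genes. Its arms are abundant in oxidative tissues such as skeletal muscle, heart and brown fat, and are known as regulators of energy metabolism. Plasma microRNAs are carried outside cells in vesicles and protein complexes, and come from blood cells, vessel walls and organs.

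The mature sequences of the miR-378a arms are shown because they set which strand of this locus a probe reads, together with rno-miR-3557-3p, which is encoded on the opposite strand at the same place. They are taken from RefSeq (GRCr8), where 2 of the 3 family names matched, run 5′ to 3′ and have the seed in capitals.
rno-miR-378a-5p: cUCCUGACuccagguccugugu
rno-miR-378a-3p: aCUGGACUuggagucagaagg
rno-miR-3557-3p: aCACAGGAccuggagucaggag
rno-miR-378a-5p lies at chr18:57128962-57128983 on the minus strand of GRCr8, and rno-miR-3557-3p covers the same 22 bases on the plus strand, so that each is the full reverse complement of the other. Both hairpin genes, Mir378 and Mir3557, lie inside the span of Ppargc1b. The gene of rno-miR-378b, Mir378b, lies on chromosome 5 inside the span of Ncoa2, which encodes a nuclear receptor coactivator. The name without a match was rno-miR-378b, so its sequence is not shown. Whether its probes also bind rno-miR-378a-3p was not tested.

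rno-miR-378b was detected on all 6 arrays and rno-miR-378a-5p on none. Feature Extraction, the software that reads the scanned array, called 126 microRNAs (16.6% of 758) detected on every array and 557 (73.5%) on none. Each member is read by 2 probes of 8 spots each, which gives 96 spots over the 6 arrays. Of these, 88 were well above background for rno-miR-378b and 1 for rno-miR-378a-5p, and none was saturated.

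Before any normalization, the background-subtracted intensity of rno-miR-378b was 23.9, 23.6 and 14.6 in the arterial samples. In the venous samples it was 17.3, 39.2 and 11.9. The venous sample of rat 2 was the brightest of the 6 and the venous sample of rat 3 the dimmest, so that the groups overlapped on this scale. For comparison, the 95th percentile of the negative control spots lay between 3.49 and 4.83 on these arrays, under every level of rno-miR-378b. The dimmest spot called well above background had an intensity of 9.36 to 13.6, depending on the array.

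The arm rno-miR-378a-5p, known for a part in the switch between oxidative and glycolytic metabolism, had intensities of 0.443, 1.10 and 0.371 in the arterial samples. The venous samples had -0.259, 1.91 and -0.377. All 6 values were below the 95th percentile of the negative controls, and 34 of the 96 spots were below 0. The single spot well above background, with an intensity of 16.1 in arterial plasma of rat 3, was flagged as an outlier among the 8 spots of its probe and left out of the mean. rno-miR-378a-5p was thus not well above background in either group, and no fold change is given for it.

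**Figure D1:**
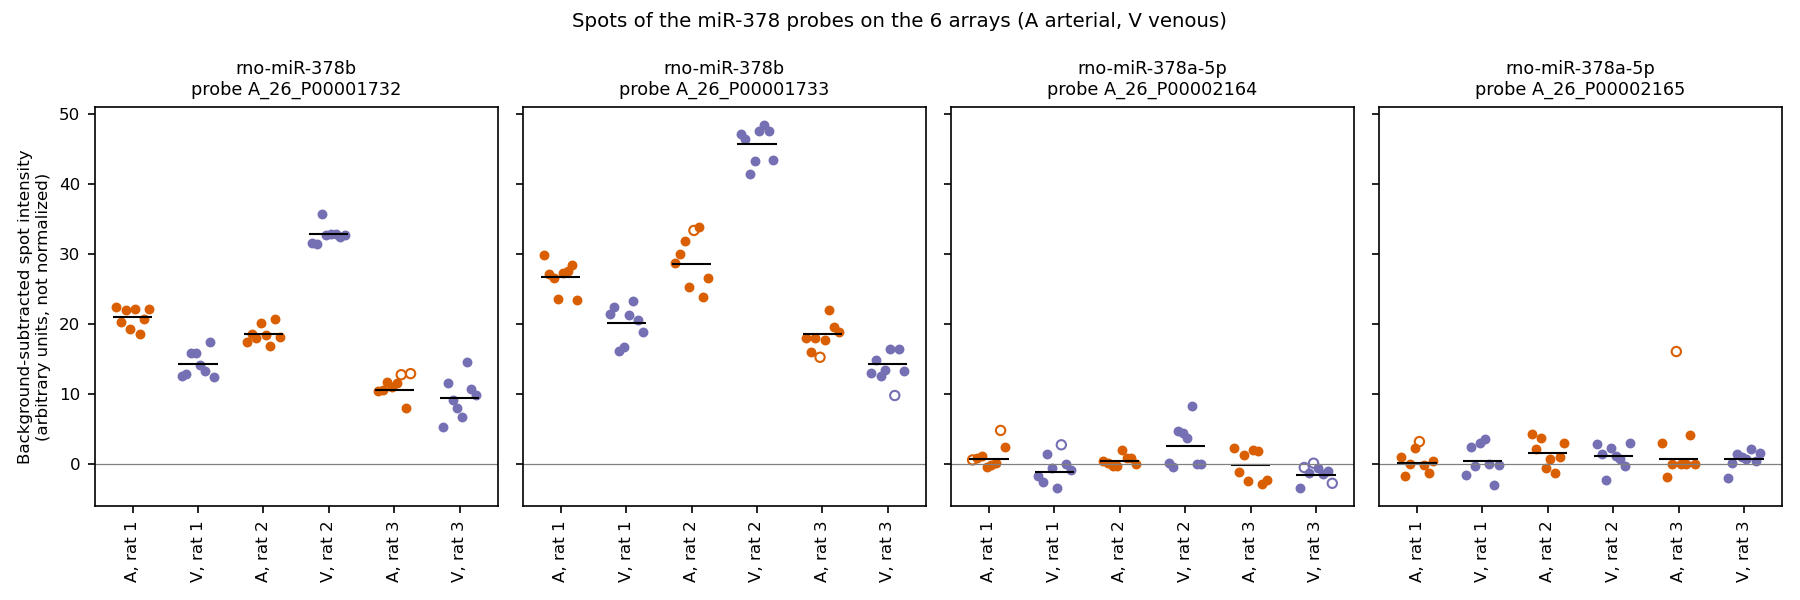
Background-subtracted intensity of every spot (vertical axis, arbitrary units, not normalized) of the 2 probes of rno-miR-378b and the 2 probes of rno-miR-378a-5p, by sample (horizontal axis, A arterial in orange and V venous in violet). Filled points are spots used, open points are spots flagged as outliers, and the black lines are means without the flagged spots. Both rno-miR-378b probes are brightest in the venous sample of rat 2, while the rno-miR-378a-5p spots scatter about 0.

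The probes of rno-miR-378b were also read apart. The probe A_26_P00001733 was well above background in all 48 of its spots, with array means of 14.3 to 45.7. The probe A_26_P00001732 was well above background in 40 of 48 spots, with array means of 9.53 to 32.8, and 4 of its 8 spots passed in the venous sample of rat 3. The coefficient of variation among the spots of a probe on an array had a median of 10.7% for A_26_P00001733 and 9.94% for A_26_P00001732. Its highest value, 30.6%, was that of A_26_P00001732 in the venous sample of rat 3, the dimmest of its arrays. Without normalization, both probes were brighter in arterial than in venous plasma in rats 1 and 3 and dimmer in rat 2. In the quantile-normalized table of the authors they disagreed in rat 1, where A_26_P00001732 was brighter and A_26_P00001733 dimmer in arterial plasma.

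After quantile normalization of the 758 microRNAs, a scaling that the study's methods also use but without background subtraction, the log2 intensity of rno-miR-378b was 4.23, 4.29 and 3.99 in the arterial samples. It was 4.82, 4.71 and 4.46 in the venous samples. Every arterial value was below every venous value on this scale. The arterial mean was 4.17 ± 0.16 (SD, n = 3) and the venous mean 4.67 ± 0.18 (SD, n = 3).

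Within rats, the arterial minus venous log2 difference of rno-miR-378b was -0.59, -0.42 and -0.47. Their mean was -0.49 ± 0.086 (SD, n = 3 rats), or a venous level 1.41 times the arterial one (1.34 to 1.50 times in single rats). It was -0.13 with normexp, another background correction, and -0.11 in the authors' table, where background is not subtracted. The normexp values had an offset of 50 added, more than the highest background-subtracted level of rno-miR-378b (39.2). After quantile normalization, rats 1 and 2 on the first slide and rat 3 on the second had differences of the same sign. This contrast was known when the family was chosen, so the shared sign is given as a description only. An exact test within 3 pairs cannot give a two-sided p under 0.25.

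Beside all microRNAs, rno-miR-378b was 1 of 13 (10.3% of the 126 detected on every array) that were lower in the arterial sample of each rat. It was also 1 of 3 (2.38%) whose arterial values were all below the venous ones. Of the 126, 7 (5.56%) had a more negative mean difference, and the median of the 126 was -0.0040. Over all 758 microRNAs, limma with the rat as a block put 2 (0.264%) past the unadjusted cutoff of 0.025 of the study's methods and lower in arterial plasma. None of the 758 had a Benjamini-Hochberg adjusted p under 0.05 in limma, while 12 (1.58%) had an unadjusted p under 0.05. With the 126 detected microRNAs fitted alone, none of them lower in arterial plasma (0%) was past the cutoff. No call is given for rno-miR-378b. These counts describe a contrast that was known when the family was chosen, and nothing is read from them.

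**Figure D2:**
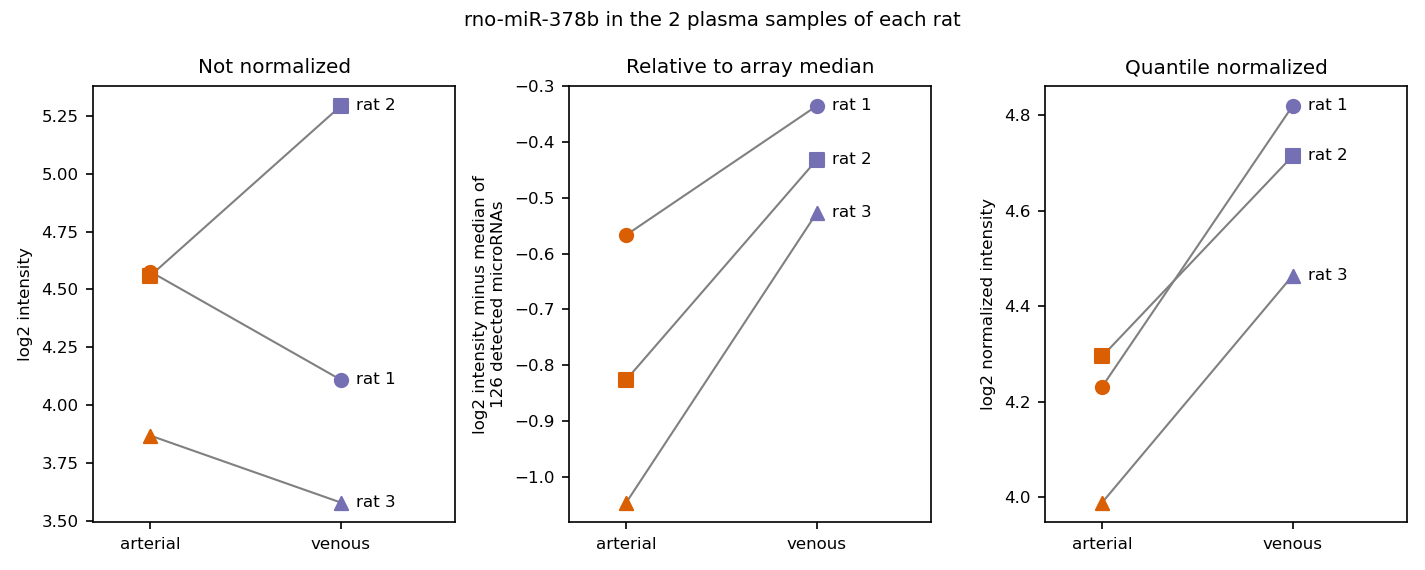
rno-miR-378b in arterial (orange) and venous (violet) plasma, with a grey line joining the samples of a rat: log2 intensity without normalization, the same minus the median of the 126 detected microRNAs, and after quantile normalization (vertical axes, log2). Without normalization only rat 2 has the higher value in venous plasma, while on the other scales all 3 rats do.

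The sign of the difference in rats 1 and 3 depended on the scaling between arrays. Without normalization, the log2 differences of rno-miR-378b were 0.47, -0.73 and 0.29, with an SD of 0.65 between rats. The median of the 126 detected microRNAs had arterial minus venous differences of 0.70, -0.34 and 0.81, of the same sign as rno-miR-378b in each rat. Relative to this median, the differences of rno-miR-378b were -0.23, -0.39 and -0.52, with a mean of -0.38 ± 0.14 (SD, n = 3 rats). By the same measure, 12 of the 126 (9.52%) were lower in the arterial sample of each rat.

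Spike-in RNAs, which the array kits add in fixed amounts, gave further scales that do not use the plasma microRNAs. The array files name these controls by code only, and which are hybridization and which labelling spike-ins was taken from general knowledge of the kit. The hybridization spike-ins, added after labelling, had arterial minus venous log2 differences of -0.49, 0.31 and -0.071. The labelling spike-ins, added before labelling, differed by -0.0067, 1.21 and 1.26. With the hybridization spike-ins as the scale, the differences of rno-miR-378b were 0.96, -1.04 and 0.36. Their mean was 0.094, against a shift of 0.49 in the median of the detected microRNAs. With the labelling spike-ins the differences were 0.47, -1.94 and -0.97, with a mean of -0.81 against a shift of -0.42. Under each of 7 scalings between arrays, no normalization among them, the mean difference of rno-miR-378b lay below that shift. Relative to it, rno-miR-378b was at -0.49 after quantile normalization and at -0.40 under the other 6, which move a whole array at once and so give 1 value by construction. The difference was below 0 in all 3 rats under 4 of the 7 scalings. A lower share of rno-miR-378b and a higher amount of the other microRNAs cannot be told apart in plasma RNA of unknown total amount.

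**Figure D3:**
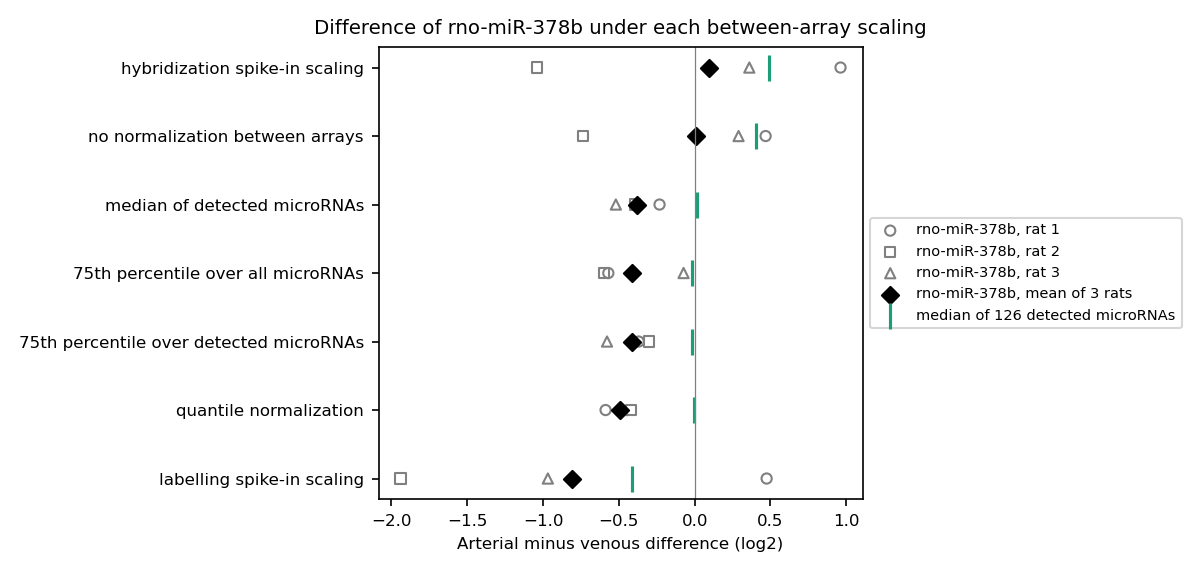
Arterial minus venous log2 difference (horizontal axis) of rno-miR-378b under each scaling between arrays (vertical axis). Open symbols are the 3 rats, black diamonds their mean, and green bars the median difference of the 126 detected microRNAs. The diamond lies left of the green bar under every scaling shown, while it is above 0 with hybridization spike-ins (0.094) and without normalization (0.0077).

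Between rats, the quantile-normalized level of rno-miR-378b had a narrow range. The mean of its arterial and venous log2 intensity was 4.53 in rat 1, 4.50 in rat 2 and 4.23 in rat 3, a range of 0.30. Of the 126 detected microRNAs, 84.1% had a larger range between rats, with a median of 0.71 over all of them. The difference between rats did not pass an adjusted p of 0.05 (adjusted p = 0.626, moderated F test in limma). The error of this test comes in part from the spread of the arterial minus venous differences, which were known when the family was chosen. Its p is therefore given as a description. Among all 758 microRNAs 0 (0%) passed in limma and 58 (7.65%) had an unadjusted p under 0.05. With the 126 detected microRNAs fitted alone, 3 of them (2.38%) passed and rno-miR-378b did not (adjusted p = 0.455 in limma). The lowest rat was rat 3, whose arrays lie on a slide of their own, so that rat and slide cannot be told apart there. Without normalization the range between rats was 1.20.

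The microRNAs whose profile over the 6 samples was most like that of rno-miR-378b were rno-miR-30e-5p, rno-miR-106b-5p and rno-miR-20b-5p. The likeness is the mean absolute difference of log2 values, each centred on its own mean, among the 125 other microRNAs detected throughout. This distance was 0.16 for rno-miR-30e-5p, 0.18 for rno-miR-106b-5p and 0.19 for rno-miR-20b-5p, against a median of 0.40. Each of the 3 had a lower arterial than venous value in rats 1 and 2. In rat 3 their arterial minus venous differences were 0.17, 0.070 and 0.27, where that of rno-miR-378b was -0.47.

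Of 14 other microRNAs linked to lipid, glucose and brown fat metabolism, 9 were detected on all arrays and 3 on none. None of the 14 passed the cutoff of 0.025 in limma, which 6 of 758 (0.792%) did. Of the 758, 557 were detected on no array, so this share is not one of detected microRNAs. The median difference of the 9 was -0.0017, beside -0.0040 over the 126 detected microRNAs, and 5 of the 9 had a negative difference. The highest value was that of rno-miR-143-3p, which is abundant in smooth muscle, with differences of 0.33, 0.89 and 0.996. rno-miR-103-3p and rno-miR-107-3p, paralogs that act on insulin signalling, had mean differences of -0.15 and -0.0017. rno-miR-365-3p, rno-miR-27b-3p and rno-miR-27a-3p had mean differences of 0.14, 0.0072 and 0.0055. Those of rno-miR-26a-5p, rno-miR-455-3p and rno-miR-370-3p were -0.043, -0.10 and -0.15.

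MicroRNAs of skeletal muscle and heart, where miR-378 is abundant, were mostly below detection. Of 7 listed, rno-miR-133b-3p was detected on all arrays, with a mean difference of 0.067, and 5 were detected on none, among them rno-miR-1-3p, rno-miR-208a-3p and rno-miR-499-5p. Of the 4 liver microRNAs, rno-miR-122-5p and rno-miR-192-5p were detected on all arrays, with mean differences of 0.44 and -0.027. rno-miR-122-5p, the main microRNA of hepatocytes, differed by -0.21, 1.23 and 0.30. None of these muscle and liver microRNAs passed the cutoff, which 6 of all 758 (0.792%) did.

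Blood cell microRNAs were detected in both plasmas. Of the 5 erythrocyte microRNAs 4 were detected on all arrays, and their median difference was -0.23, -0.54 and 0.51. The summed log2 level of the 5 was 11.0 to 11.1 in arterial and 10.7 to 11.2 in venous samples. The brightest, rno-miR-451-5p, had a normalized value of 10.5 in every sample except the venous one of rat 3 (9.71). Quantile normalization gives each rank a fixed value, so this sum shows little of how the samples differ. The 4 detected on all arrays had mean differences of 0.26 for rno-miR-451-5p, 0.070 for rno-miR-144-3p, -0.15 for rno-miR-16-5p and -0.57 for rno-miR-486. rno-miR-486 had a lower arterial value in each rat, with differences of -0.23, -1.02 and -0.47. All 5 platelet and leukocyte microRNAs were detected on all arrays, with a median difference of -0.22, -0.40 and 0.54. Their summed log2 level was 9.00 to 9.91 in arterial and 9.40 to 9.84 in venous samples. The mean differences were 0.21 for rno-miR-126a-3p, 0.028 for rno-miR-223-3p, -0.0013 for rno-miR-142-5p, -0.18 for rno-miR-142-3p and -0.40 for rno-miR-150-5p. The last, a lymphocyte microRNA, had differences of -0.22, -0.40 and -0.58, while none of the others was lower in arterial plasma in each rat. No blood cell microRNA of these lists passed the cutoff, which 6 of all 758 (0.792%) did. The part of blood cell microRNAs in the values of rno-miR-378b was not tested. Outside rat 3, the medians of both blood cell lists were below 0 in each rat, as was rno-miR-378b. In rat 3 both medians were above 0, while rno-miR-378b, rno-miR-486 (-0.47) and rno-miR-150-5p (-0.58) were below 0. The other microRNAs of these lists detected on all arrays were above 0 in rat 3.

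**Figure D4:**
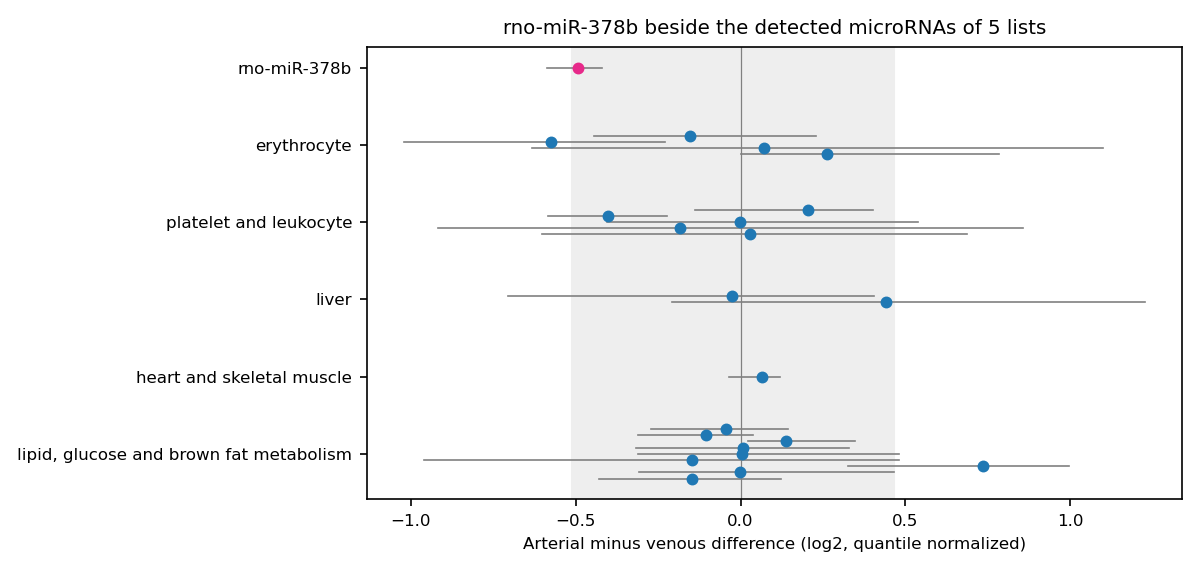
Mean arterial minus venous log2 difference (horizontal axis, quantile normalized) of rno-miR-378b (pink) and of the microRNAs of 5 lists detected on all arrays (blue), with grey lines from the lowest to the highest of the 3 rats. The grey band holds the 5th to the 95th percentile of the 126 detected microRNAs (-0.51 to 0.47). The line of rno-miR-378b is short and lies left of 0, while most other lines cross 0.

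The probes of rno-miR-3557-3p, named for the opposite strand of the miR-378a locus, gave a signal where those of rno-miR-378a-5p did not. This microRNA shares a run of 9 bases with rno-miR-378a-3p, and whether its probes also bind that arm was not tested. rno-miR-3557-3p, the reverse complement of rno-miR-378a-5p, was picked from the annotation after its values were seen, and was detected on 5 of 6 arrays, all but the arterial array of rat 3. Its intensity without normalization was 20.2, 6.57 and 4.93 in the arterial and 8.70, 14.1 and 4.90 in the venous samples. In rat 3 the venous level called detected (4.90) was no higher than the arterial level not called (4.93). The 95th percentiles of the negative controls on these arrays were 3.72 and 3.49. The quantile-normalized differences were 0.45, -0.82 and -0.67, so that the groups overlapped and the sign was not common to the rats (mean -0.35, standard error 0.382, adjusted p = 1 in limma). The other arm of that hairpin, rno-miR-3557-5p, was detected on no array.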

How the data were processed

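The authors deposited Agilent Feature Extraction spot intensities (version 10.7.3.1 per the file headers, 11.0.1.1 in the labels and methods), background-subtracted but not scaled between arrays. They also deposited linear probe intensities, quantile normalized in GeneSpring without background subtraction. Feature Extraction's flags (well above background, detected, outlier), which are other deposited values of 0 or 1, were used as given. Here, non-control spots without outlier flags (8.72 to 10.4% were flagged) were averaged per probe and probes per microRNA, followed by quantile normalization, a floor of 1 and log2. Between 137 and 175 microRNAs were detected on an array, and the number of arrays limits precision. Differences are arterial minus venous, fitted over all 758 microRNAs with limma 3.58.1 (lmFit and eBayes, two-sided, rat as block) in R 4.3.3, at an unadjusted cutoff of 0.025 and a Benjamini-Hochberg adjusted p of 0.05. Both samples of a rat come from the same animal, and over the 126 microRNAs detected on all arrays their deviations from the group means correlated at 0.64 to 0.80. The limma fit was tested on simulated log2 values of the 126 detected microRNAs, with changes larger than that of rno-miR-378b. It was not tested on all 758 as fitted here, and the steps before it were not tested.

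Named microRNAs are the family members, the 3 most like rno-miR-378b, and listed microRNAs detected on all arrays. Outside this rule both rno-miR-3557 arms and 3 undetected muscle microRNAs are named. Members and lists were chosen with earlier results of these data known. Sequences are from RefSeq (GRCr8). Blood (3 mL per vessel) was spun at 1600 g and the plasma at 16000 g, then passed through a 0.22 μm filter.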

Additional observations from a re-analysis of the deposited data

How the results depend on the processing

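The log2 difference of rno-miR-378b (-0.49) was recomputed under 25 alternatives as a description, since this contrast was known when the family was chosen. The labelling spike-ins, the median of detected microRNAs and single probes were chosen after seeing the data. It turned to 0.0077 without normalization and to 0.094 with hybridization spike-ins. It was -0.42 and -0.41 when scaled to the 75th percentile over detected or all microRNAs, -0.38 with the median of detected microRNAs and -0.81 with labelling spike-ins. It was -0.11 in the authors' table and -0.13 after normexp with an offset of 50. Fitting only microRNAs detected on all arrays or on at least 1 array left it at -0.49, as did dropping the replicate block. These fits cannot change the mean difference in a balanced design, so the unchanged value is no further evidence. With a rat left out the difference ranged from -0.53 to -0.45. The causes of these changes were not tested. On the values normalized here, the methods' t-test put 4 of 379 microRNAs with a spread between rats past the cutoff of 0.025, and 0 after Benjamini-Hochberg adjustment. The range between rats (0.30) passed the adjusted threshold in none of 22 alternatives and ran from 0.021 without rat 3 to 1.20 without normalization.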

Other observations

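In the authors' quantile-normalized table, background is not subtracted and each probe is ranked as the raw median brightness of its first listed spot. There the probe A_26_P00001733 of rno-miR-378b stood at 63.0, 63.6 and 64.7 in the arterial samples of rats 1 to 3 and at 69.0, 74.2 and 74.5 in the venous ones. The probe A_26_P00001732 stood at 58.2, 55.9 and 52.5 in the arterial and 54.3, 63.3 and 52.5 in the venous samples, so that it was higher in arterial plasma in rat 1. The probes of rno-miR-378a-5p lay between 35.9 and 45.1, near the medians of the arrays, which were 38.5 to 42.3.

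Over the 6 arrays the log2 ratio of A_26_P00001732 to A_26_P00001733, in spot means without normalization, ran from -0.82 in the arterial sample of rat 3 to -0.35 in that of rat 1. Its venous values lay between -0.59 and -0.48.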
